A study of Mus musculus with 3 samples.

Results

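Glycolysis and the response to low oxygen were followed in mouse skin papillomas through 45 genes, of 24028 gene identifiers in all. The genes were taken by name: each Entrez identifier in the deposited table was matched to its symbol, and all 45 listed symbols were found. They comprise 16 glycolytic enzymes, 4 regulators of fructose-2,6-bisphosphate, 4 carriers of glucose and lactate, 3 pyruvate dehydrogenase kinases, 6 genes of oxygen sensing and 12 targets of the hypoxia response. Papillomas are benign epidermal tumours, raised here in C57BL/6 mice by the carcinogen DMBA followed by the tumour promoter TPA, a treatment that every genotype received. The genotypes were Tg46, whose transgene expresses galectin-7 from the keratin 14 promoter of basal keratinocytes, Lgals7-/-, which lack galectin-7, and wild-type, with the endogenous gene. RNA of 3 tumours was pooled into 1 library per genotype, so tumours cannot be told apart and no difference has a replicate check. Galectin-7 is a lectin of stratified epithelia, and the comparisons ask how tumours with more of it, or none, differ.

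Glycolysis breaks glucose down to pyruvate, and hexokinase, phosphofructokinase and pyruvate kinase catalyse its irreversible steps. When oxygen is scarce the prolyl hydroxylases of the Egln family no longer mark hypoxia-inducible factor (HIF) for destruction by the Vhl ligase. HIF then pairs with Arnt and raises transcription of glucose carriers, glycolytic enzymes, pyruvate dehydrogenase kinases, carbonic anhydrases and Vegfa, and much of this programme is commonly raised in epithelial tumours.

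The libraries were shallow, with totals of 354499 counts in Tg46, 312600 in Lgals7-/- and 172011 in wild-type. A count of 0 allows a level of up to 8.95 CPM (counts scaled to library size) in Tg46, 9.11 in Lgals7-/- and 17.4 in wild-type, that of 3 counts. Lgals7 itself held 4, 2 and 0 counts in these libraries, too few to check the genotype labels, so each library is named by its label. The 9 keratinocyte markers, which define the main cell type of a papilloma, summed to 741, 599 and 168 counts. Against wild-type the ratio of these sums was 2.27 (95% interval 1.92 to 2.70) in Tg46 and 1.87 (1.57 to 2.23) in Lgals7-/-. None of the 9 was at 0 in any library. A call means a ratio of at least 2-fold with a 95% interval that excludes 1. Over wild-type, 6 (66.7%) were called higher in Tg46 and 3 (33.3%) in Lgals7-/-. Of all genes compared, 13.7% and 13.3% were. The part of the keratinocyte markers in the results on glycolysis and hypoxia genes was not tested. In bulk RNA, fewer cells of a type and less RNA per cell cannot be told apart. Intervals are exact Clopper-Pearson intervals of a pair of counts and reflect counting error alone, because each genotype has 1 library. Reads that carry no molecular identifier are not separate molecules, so even the counting error may be larger than the intervals show.

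HIF binds a short core, ACGTG or GCGTG. It was looked for on both strands in the 250 bases before 1 start per gene in RefSeq (GRCm38.p6). Where several starts were listed, the most upstream was used, as for Pfkm (4 starts), Vegfa (2) and Pkm (2). Windows of the other starts were not read. The palindrome CACGTG holds the core on each strand and counts as 2 overlapping matches. Of the 41 members with an entry, 32 (78.0%) held at least 1 match, against 38.6% of 27025 promoters and 51.3% of the 10140 promoters of genes compared here. The members' windows had a median of 59.6% G and C, against 52% over all promoters and 58.8% for the genes compared, and the core itself is rich in both bases. A match is a description of the letters only, and no data on binding were used. Below are windows of members with some of the largest ratios against wild-type, 5′ to 3′ on the gene's own strand, with matches in capitals. The first 3 follow the rule for examples, and Car9 was chosen after its values were seen. They show that the ratios described further on were found in genes with and without the core near the start used.
Pdk4 (chr6:5496310-5496528, minus strand): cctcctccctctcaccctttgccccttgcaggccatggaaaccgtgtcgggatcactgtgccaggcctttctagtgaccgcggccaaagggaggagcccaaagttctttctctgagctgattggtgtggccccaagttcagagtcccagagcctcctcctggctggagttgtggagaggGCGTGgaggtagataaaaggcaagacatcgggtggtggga
Pfkm (chr15:98092339-98092588, plus strand): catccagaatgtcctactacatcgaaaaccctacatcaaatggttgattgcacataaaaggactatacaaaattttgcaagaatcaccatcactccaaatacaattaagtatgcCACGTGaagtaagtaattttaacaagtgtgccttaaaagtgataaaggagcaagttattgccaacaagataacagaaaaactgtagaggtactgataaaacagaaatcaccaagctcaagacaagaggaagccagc
Vegfa (chr17:46032378-46032627, minus strand): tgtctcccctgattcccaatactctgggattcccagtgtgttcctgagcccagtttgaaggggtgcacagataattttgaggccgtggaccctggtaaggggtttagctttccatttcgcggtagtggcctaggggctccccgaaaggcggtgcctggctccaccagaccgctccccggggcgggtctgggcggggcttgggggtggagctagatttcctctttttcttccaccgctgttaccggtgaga
Car9 (chr4:43506996-43507025, plus strand): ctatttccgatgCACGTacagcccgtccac
Pdk4 held 1 match, which begins 71 bases before the start, and Pfkm held the palindrome, 136 bases before it. Car9, a carbonic anhydrase and a standard marker of hypoxia, held 1 match 18 bases before the start. Vegfa, Pkm and Car12 held none in the window, which says only that these letters are not there. Pkm, also taken by the rule, is not shown because its window lies largely inside a longer gene model, and the part of the Pdk4 window inside its gene model is left out too. For Car9 the match lies inside the gene model, and only the 30 bases around it are printed.

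**Figure D1:**
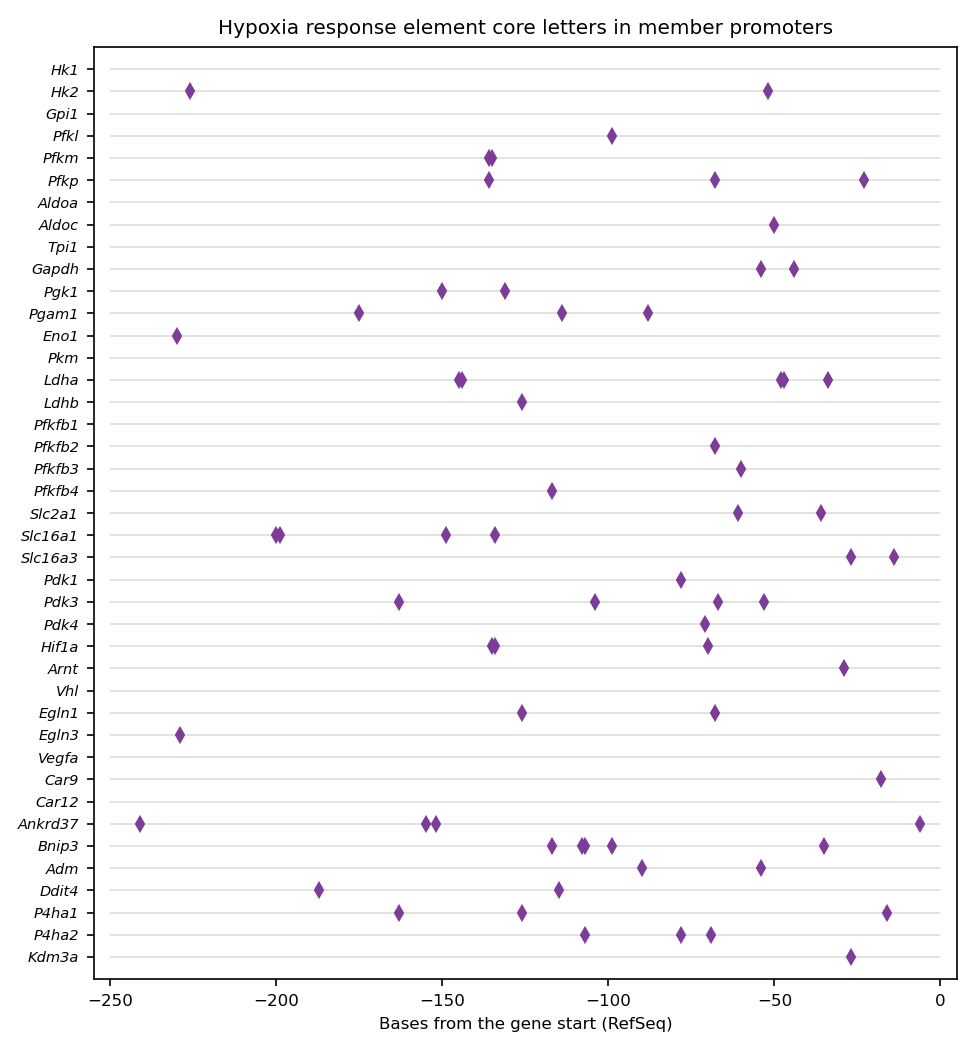
Positions of the hypoxia response core (ACGTG or GCGTG, either strand) in the 250 bases before the most upstream RefSeq start of 41 members. The x axis is the distance from that start in bases, each diamond is 1 match and each grey line 1 gene. Matches occur in 32 of the 41 windows, with Vegfa, Pkm and Car12 among the empty lines.

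Most of these genes were sparsely counted. Per kilobase of exon, which allows levels of different genes to be compared, the median member stood at 7.96 CPM per kb in Tg46, 7.79 in Lgals7-/- and 5.16 in wild-type. The median of 23697 annotated genes was 6.60, 6.78 and 5.69 CPM per kb in the same libraries. The 1475 chemosensory receptor genes, a set not expected in skin and chosen after earlier results of these data were known, stood at 2.36, 2.53 and 3.22 CPM per kb. Whether those counts are expression was not tested. The lower end of the count's own interval lay above this level for 32 of 45 members in Tg46, 31 in Lgals7-/- and 17 in wild-type.

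Pfkfb2 had the highest level in Tg46 and Lgals7-/- and Slc16a1 in wild-type. Pfkfb2, a bifunctional enzyme that makes and breaks fructose-2,6-bisphosphate, stood at 123 CPM per kb in Tg46, 70.8 in Lgals7-/- and 51.1 in wild-type. Hif1a, the oxygen-regulated subunit of HIF, stood at 60.2, 21.1 and 15.7 CPM per kb, and Slc16a1, a lactate and pyruvate carrier, at 35.7, 57.0 and 53.6. Textbook abundant transcripts were low. Why was not tested, and since the sources used here state neither how reads were counted nor whether the table holds all of them, every value is that of the counts listed at a gene. Gapdh, which oxidises glyceraldehyde-3-phosphate, held 4, 5 and 0 counts, at percentiles 22.5, 28.8 and 0 of all genes per kb in Tg46, Lgals7-/- and wild-type. Ldha, which turns pyruvate into lactate, held 2, 3 and 0 counts. Near-identical copies elsewhere in the genome (at least 95% identity over at least 200 bases of coding sequence) were found for 9 members, with 79 for Gapdh and 4 each for Ldha, Pgk1 and Bnip3. Of these 9, 7 did not reach 10 counts in any library, and all 9 are uncertain because how reads shared between copies were handled is not stated. How far the copies bear on these counts was not tested.

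**Figure D2:**
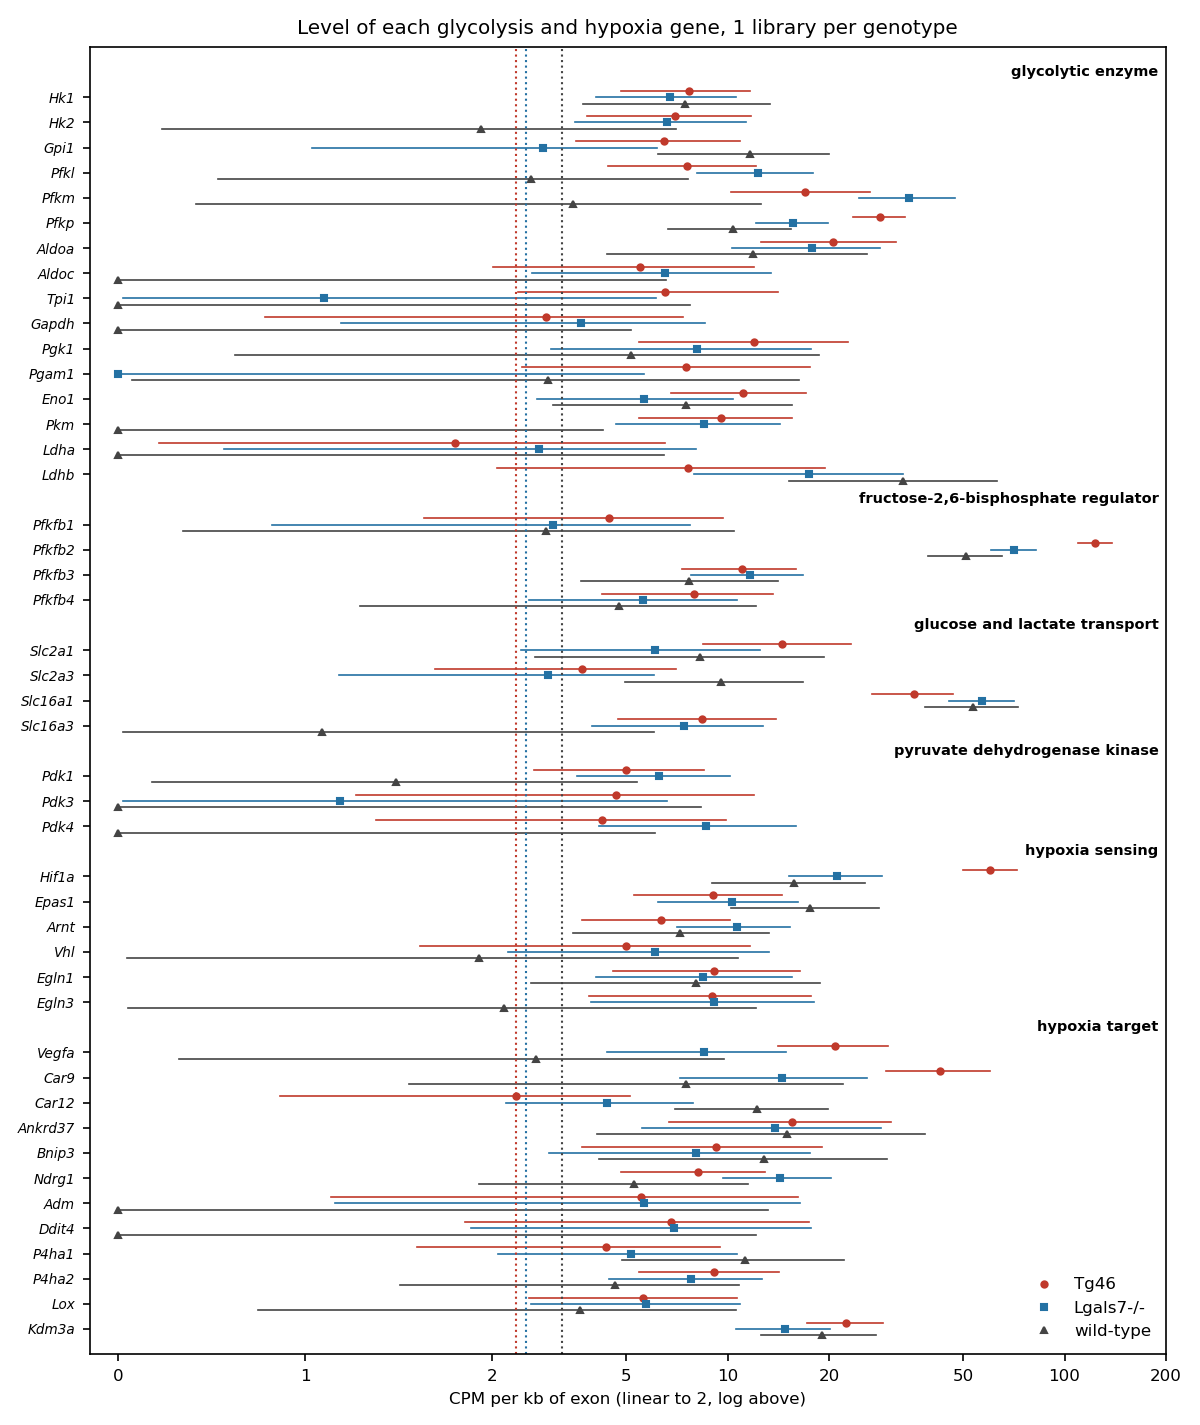
Level of each of the 45 members in CPM per kb of exon (linear below 2, log above), grouped by role, with 1 point per library (Tg46 circles, Lgals7-/- squares, wild-type triangles) and the 95% Poisson interval of its count; dotted lines mark the chemosensory receptor level of each library. Pfkfb2, Hif1a and Slc16a1 lie far to the right of the lines, and 9 members sit at 0 in wild-type.

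A gene was compared where at least 1 library held 10 counts, which 28 of the 45 members met. A call of higher or lower needed a ratio of scaled counts of at least 2-fold with a 95% interval that excluded 1. In Tg46 relative to Lgals7-/-, 3 members were called higher (Hif1a, Vegfa and Car9) and 1 lower (Pfkm), against 8.43% and 7.73% of the 12940 genes compared. Their median log2 ratio was 0.18, against -0.03 over all genes compared. In Tg46 relative to wild-type, 8 were called higher (Pkm, Vegfa, Slc16a3, Car9, Pfkm, Hif1a, Pfkp and Pfkfb2) and 2 lower (Car12 and Slc2a3), against 13.7% and 13.9%. The median was 0.71 there, or 0.67 with genes at 0 in wild-type set to their bound, against 0.11 over all genes. In Lgals7-/- relative to wild-type, 6 were called higher (Pkm, Pdk4, Pfkm, Slc16a3, Pfkl and Ndrg1) and 3 lower (Gpi1, Slc2a3 and Car12), against 13.3% and 13.7%, with a median of 0.50 against 0.10. Several calls rest on few wild-type counts. With 5 counts added to each library, Pfkm lost its call in Tg46 over Lgals7-/-, Pfkm and Slc16a3 in Tg46 over wild-type, and Pkm, Slc16a3, Pdk4 and Ndrg1 in Lgals7-/- over wild-type, and the median in Tg46 over wild-type was 0.18. Slc16a3 in Lgals7-/- over wild-type also lost its call with DESeq2 size factors. The comparisons with wild-type share that library. By fold alone, 5 members were higher and 1 lower in Tg46 over Lgals7-/- (14% and 12.8% of all genes compared), 12 and 2 in Tg46 over wild-type (25.6% and 18.2%) and 9 and 3 in Lgals7-/- over wild-type (25.3% and 18.6%).

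The filter favours members with 1 high library, so these counts lean on it. It does not force a call, as Pfkfb4 reached 10 counts in Tg46 alone (13, against 9 and 4) and had none. Slc2a3 reached 10 counts in wild-type alone (12, against 9 in Tg46 and 7 in Lgals7-/-) and was called lower in both comparisons with it. Pdk4 reached 10 counts in Lgals7-/- alone (10, against 5 in Tg46 and 0 in wild-type) and was called higher there over wild-type. The calls of Slc2a3 and Pdk4 therefore rest on the library that passed them. Of the 8 called higher in Tg46 over wild-type, 5 held fewer than 10 counts in wild-type, and so did all 6 called higher in Lgals7-/- over wild-type. Among the 12 members with at least 10 counts in wild-type, 3 were called higher in Tg46 and 2 lower (25% and 16.7%), where 3.88% and 31.1% of the 5541 such genes were. In Lgals7-/-, 0 of these 12 members were called higher and 3 lower (25%), where 1.59% and 30.4% of such genes were. With no filter, the ratio lay above 1 for 35 of the 45 members in Tg46 over wild-type (77.8%, against 49.6% of all 24028 identifiers). It did so for 31 in Lgals7-/- over wild-type (68.9%, against 49.0%) and 25 in Tg46 over Lgals7-/- (55.6%, against 45.3%). Identifiers at 0 in both libraries fall below 1 by scaling alone, which lowers the shares of all identifiers, and no member was among them. Those with a count numbered 22464 in Tg46 and wild-type, 22389 in Lgals7-/- and wild-type and 22844 in Tg46 and Lgals7-/-. The ratio lay above 1 for 11923, 11778 and 10879 of them. A gene at 0 in wild-type lies above 1 with any count in the other library. This held by construction for the 9 members at 0 in wild-type, in Tg46 and in Lgals7-/- alike.

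**Figure D3:**
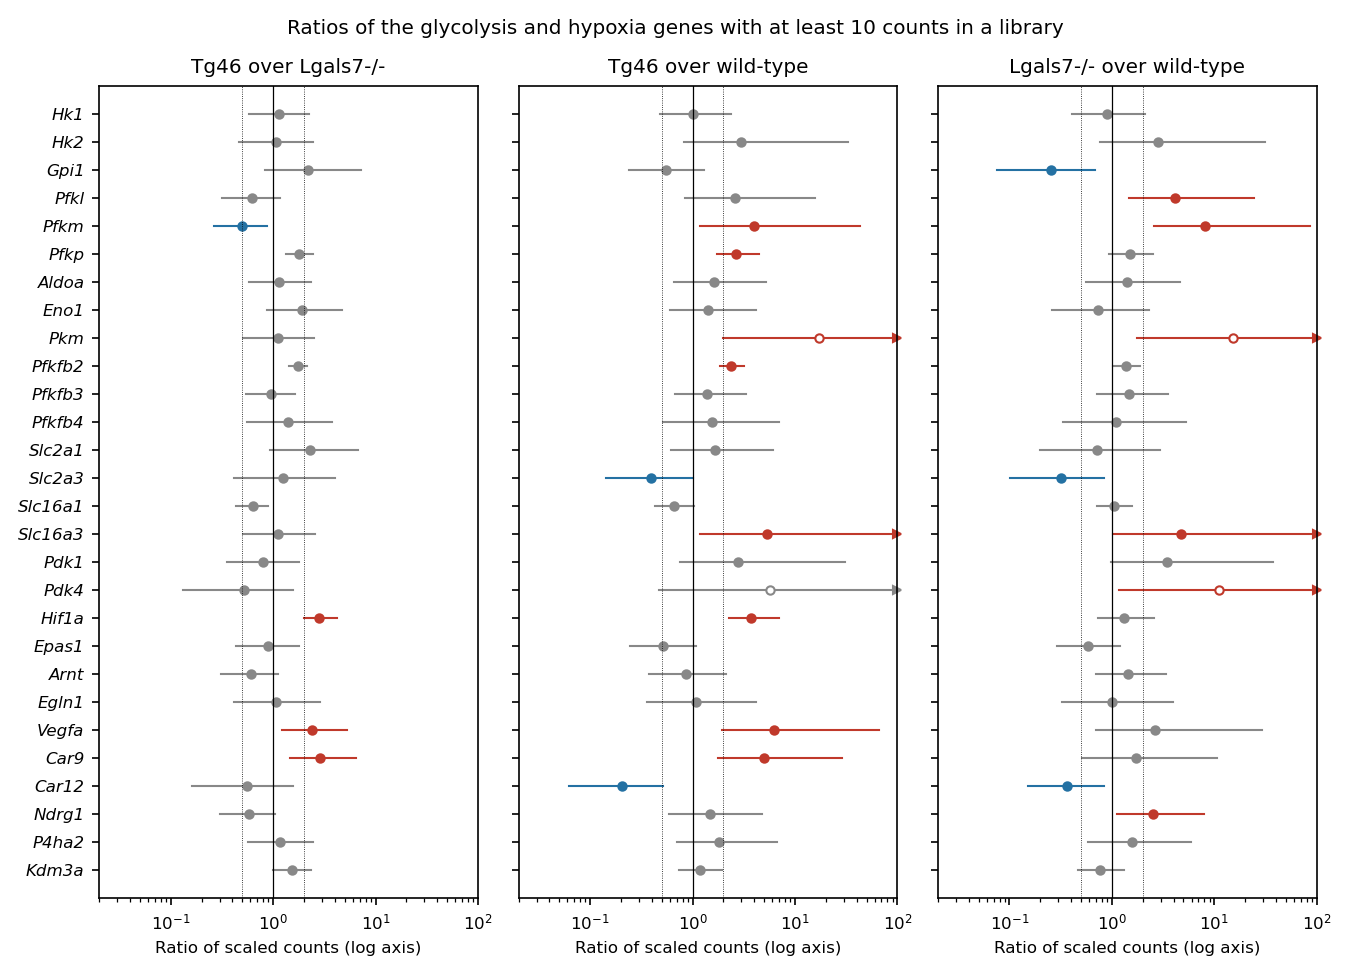
Ratio of scaled counts with its 95% interval (log axis) for the 28 members with at least 10 counts in a library, in Tg46 over Lgals7-/-, Tg46 over wild-type and Lgals7-/- over wild-type; red marks a call of higher and blue of lower, dotted lines are 2-fold, arrowheads are intervals that run past the axis and open points are ratios with a library at 0 (0.5 counts added). The narrow intervals are those of Pfkfb2, Pfkp, Hif1a, Slc16a1 and Kdm3a in Tg46 over Lgals7-/-, the deeper pair of libraries.

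Phosphofructokinase, the committed step of glycolysis, had the most counts among the 16 glycolytic enzymes. Its platelet-type subunit Pfkp (chr13:6579768-6648777) held 127 counts in Tg46, 69 in Lgals7-/- and 24 in wild-type. Tg46 was the high library, and Pfkp was 2.68-fold (1.75 to 4.41) above wild-type there and 1.80-fold (1.34 to 2.46) higher than in Lgals7-/-, the second under the 2-fold threshold. In Lgals7-/- over wild-type the ratio was 1.49 (0.936 to 2.51). The muscle-type subunit Pfkm (chr15:98092589-98132451) held 19, 38 and 2 counts, with Lgals7-/- the high library and wild-type near 0. Pfkm was 2.01-fold (1.15 to 3.74) lower in Tg46 than in Lgals7-/-, and against wild-type it was 4.02-fold (1.18 to 43.4) higher in Tg46 and 8.08-fold (2.58 to 85.3) higher in Lgals7-/-. The liver-type subunit Pfkl (chr10:77986947-78010083) held 17, 27 and 3 counts and was called only in Lgals7-/- over wild-type, at 4.12-fold (1.45 to 24.3) higher. The 3 subunits therefore did not keep the same order of libraries. Summed, they held 163, 134 and 29 counts, with ratios of 1.19 (0.945 to 1.51) in Tg46 over Lgals7-/-, 2.90 (1.94 to 4.46) in Tg46 over wild-type and 2.43 (1.61 to 3.76) in Lgals7-/- over wild-type.

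Pfkp and Pfkm have exons that overlap exons on the opposite strand, by 5.58% of the exon length with Pitrm1 and by 0.54% with Senp1. Exons of Pfkm also share 341 of 3340 bases with Gm26513 on the same strand. No source used here says whether reads were counted by strand. Pitrm1 held 17, 8 and 20 counts in Tg46, Lgals7-/- and wild-type, with wild-type its high library, and Senp1 held 40, 45 and 21. The part of these overlaps in the ratios was not tested.

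Pkm, the pyruvate kinase that makes pyruvate and ATP in the last step (chr9:59656368-59679375), held 16 counts in Tg46, 14 in Lgals7-/- and 0 in wild-type. Against the floor of 3 counts per library it was at least 2.75-fold higher in Tg46 and at least 2.45-fold higher in Lgals7-/- than in wild-type. These bounds take the other count as exact, and the lower ends of the 95% intervals were 1.99 and 1.74. In Tg46 over Lgals7-/- the ratio was 1.12 (0.513 to 2.48). Exons of Pkm share 767 of 5001 bases with Gm49759 on the same strand, and the part of this overlap was not tested. Gpi1, which isomerises glucose-6-phosphate (chr7:34201330-34230336), held 14, 6 and 13 counts, with Lgals7-/- the low library. It was 3.96-fold (1.46 to 13.2) lower in Lgals7-/- than in wild-type, has a near-identical copy and overlaps Gm26762 on the opposite strand.

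Other enzymes passed the filter without a call. Hk1, a hexokinase of most tissues, held 22, 19 and 11 counts in Tg46, Lgals7-/- and wild-type, and its ratio of Tg46 to wild-type was 1.01 (0.479 to 2.35). Hk2, the inducible hexokinase, held 14, 13 and 2, with ratios against wild-type of 2.99 (0.829 to 32.7) in Tg46 and 2.83 (0.772 to 31.1) in Lgals7-/-. Aldoa, an aldolase, held 20, 17 and 6, and Eno1, an enolase, 20, 10 and 7. The intervals of these 4 genes included 1 in every comparison. The 7 enzymes under the filter were Aldoc, Tpi1, Gapdh, Pgk1, Pgam1, Ldha and Ldhb, none with more than 9 counts. Ldhb, the heart-type lactate dehydrogenase subunit, went the other way from Pkm with 4, 9 and 9 counts, a level in Tg46 that was 4.09-fold (1.22 to 19.4) below that in wild-type.

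The regulators of fructose-2,6-bisphosphate, the main activator of phosphofructokinase, were dominated by Pfkfb2 (chr1:130689182-130729253). It held 300 counts in Tg46, 169 in Lgals7-/- and 64 in wild-type, which is 26.1%, 19.6% and 18.3% of all member counts. Pfkfb2 was called in Tg46 over wild-type, at 2.40-fold (1.84 to 3.22) higher. It was 1.74-fold (1.44 to 2.12) higher in Tg46 than in Lgals7-/- and 1.38-fold (1.03 to 1.88) higher in Lgals7-/- than in wild-type, both under 2-fold with intervals above 1. Its exons overlap those of Yod1 on the opposite strand by 2.12% of their length, and Yod1 held 14, 13 and 2 counts. They also overlap Gm29427 on the same strand, by 1262 of 7254 bases. Pfkfb3, the isoform with the strongest kinase activity, held 28, 29 and 10 counts and Pfkfb4 13, 9 and 4, neither with a call. Pfkfb1, the liver isoform, held 6, 4 and 2.

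The carriers moved in different directions. Slc16a3, a lactate exporter of glycolytic cells (chr11:120948480-120960868), held 15 counts in Tg46, 13 in Lgals7-/- and 1 in wild-type. It was 5.33-fold (1.19 to 326) higher in Tg46 and 4.72-fold (1.02 to 290.0) higher in Lgals7-/- than in wild-type, intervals that rest on a single wild-type count. Slc2a3, a high-affinity glucose carrier (chr6:122727809-122801640), was the opposite, with 9, 7 and 12 counts and wild-type the high library for its depth. It was 3.18-fold (1.19 to 9.79) lower in Lgals7-/- than in wild-type and 2.55-fold lower in Tg46, where the bound nearest to no change (1.0002-fold) only just cleared it. Slc16a1 held 53, 83 and 41 counts and was 1.59-fold (1.12 to 2.29) lower in Tg46 than in Lgals7-/-, under the 2-fold threshold. Slc2a1, the main glucose carrier of keratinocytes, held 17, 7 and 5 counts. Its ratio of Tg46 to Lgals7-/- was 2.29, with an interval that included 1 (0.940 to 6.80).

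The pyruvate dehydrogenase kinases, which inhibit pyruvate dehydrogenase and so hold back the conversion of pyruvate to acetyl-CoA, were nearly absent from the wild-type counts. Pdk4 (chr6:5483351-5496309) held 5, 10 and 0 counts in Tg46, Lgals7-/- and wild-type and was at least 1.75-fold higher in Lgals7-/- than in wild-type. The lower end of its interval was 1.18. Since this bound is under 2-fold, the call of Pdk4 rests on the ratio with 0.5 counts added to each library (11.0). Pdk1, a HIF target, held 13, 16 and 2 counts, and its ratios of 2.78 (0.759 to 30.6) in Tg46 and 3.46 (0.987 to 37.6) in Lgals7-/- over wild-type were not called. Pdk3 held 4, 1 and 0. Summed over the 3 kinases, the counts were 22, 27 and 2, and the ratio to wild-type was 5.67 (1.39 to 49.7) in Tg46 and 7.09 (1.78 to 61.5) in Lgals7-/-.

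In oxygen sensing, Hif1a (chr12:73901375-73947530) had the most counts in Tg46 and Lgals7-/-, and Epas1 in wild-type. Hif1a held 119 counts in Tg46, 41 in Lgals7-/- and 16 in wild-type, with Tg46 the high library by a wide margin. Hif1a was 2.83-fold (1.98 to 4.17) higher in Tg46 than in Lgals7-/- and 3.73-fold (2.27 to 6.93) higher than in wild-type, and in Lgals7-/- over wild-type the ratio was 1.32 (0.739 to 2.57). HIF is regulated mainly through the stability of its protein, which counts of RNA do not measure. Exons of Hif1a overlap Gm15283 on the opposite strand by 5.60% of their length and Gm49321 on the same strand, and neither was matched in the table. Epas1, the HIF subunit of endothelium, held 17, 19 and 17 counts, a ratio of 0.516 (0.247 to 1.07) in Tg46 over wild-type. Arnt, the constant partner, held 17, 28 and 10, and Egln1, the main oxygen-dependent prolyl hydroxylase, 11, 10 and 5. None of these 3 was called. Egln3, a hydroxylase that HIF itself induces, held 8, 8 and 1 counts and Vhl 5, 6 and 1.

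Among the targets, Vegfa, the angiogenic growth factor (chr17:46016993-46032369), held 30 counts in Tg46, 12 in Lgals7-/- and 2 in wild-type. It was 2.40-fold (1.22 to 5.27) higher in Tg46 than in Lgals7-/- and 6.29-fold (1.96 to 66.8) higher than in wild-type. No opposite-strand exon overlaps it. Car9 (chr4:43506966-43513729) held 33, 11 and 3 counts and was 2.86-fold (1.45 to 6.46) higher in Tg46 than in Lgals7-/- and 4.93-fold (1.78 to 28.9) higher than in wild-type. Its exons overlap Gm12454 on the opposite strand by 9.29% of their length. Hif1a, Vegfa and Car9 shared the order of libraries, and in Lgals7-/- over wild-type the intervals of all 3 included 1. This order, Tg46 above Lgals7-/- above wild-type, was not particular to them. Pfkp, Pfkfb2 and Pkm had it too, as did the summed keratinocyte markers (2211, 1820 and 972 CPM), while Pfkm and Slc16a1, for example, did not.

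Car12, a second membrane carbonic anhydrase (chr9:66713686-66766845), went the other way, with 6, 11 and 16 counts. It was 4.92-fold (1.92 to 16.1) lower in Tg46 and 2.73-fold (1.21 to 6.60) lower in Lgals7-/- than in wild-type. Ndrg1, a differentiation and stress gene (chr15:66929318-66969640), held 18, 31 and 6 counts and was 2.54-fold (1.11 to 7.95) higher in Lgals7-/- than in wild-type, with overlaps on the opposite strand with Gm17035 and Gm2895. Kdm3a, a histone demethylase, held 62, 40 and 27 counts, a ratio of 1.52 (1.01 to 2.33) in Tg46 over Lgals7-/-. P4ha2, a collagen prolyl hydroxylase, held 19, 16 and 5 counts without a call. The 6 targets under the filter, Ankrd37, Bnip3, Adm, Ddit4, P4ha1 and Lox, held 9 counts or fewer, and all of their intervals included 1. The mitophagy receptor Bnip3, for example, held 7, 6 and 5 counts, and the mTOR inhibitor Ddit4 held 4, 4 and 0.

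Summed over all 45 members the counts were 1150 in Tg46, 861 in Lgals7-/- and 350 in wild-type. The ratio was 1.31 (1.20 to 1.43) in Tg46 over Lgals7-/-, 1.69 (1.502 to 1.91) in Tg46 over wild-type and 1.29 (1.14 to 1.47) in Lgals7-/- over wild-type. Pfkfb2, Pfkp and Hif1a carried 47.5%, 32.4% and 29.7% of these counts in Tg46, Lgals7-/- and wild-type. Without these 3 genes the ratios were 1.02 (0.908 to 1.14), 1.27 (1.09 to 1.47) and 1.24 (1.07 to 1.45) in the same comparisons. Over the 29 members with no exon overlapping an opposite-strand exon they were 0.982 (0.856 to 1.13), 1.17 (0.980 to 1.39) and 1.19 (0.997 to 1.42). Pfkfb2, Pfkp and Hif1a each have such an overlap, and its part in their counts was not tested.

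Within roles the same held for single genes. The glycolytic enzymes summed to 305, 244 and 80 counts in Tg46, Lgals7-/- and wild-type, and the ratio of Tg46 to Lgals7-/- was 1.23 (1.03 to 1.46) with Pfkp and 0.999 (0.806 to 1.24) without it. Against wild-type the enzymes without Pfkp stood at 1.64 in Tg46 (1.21 to 2.25) and at 1.64 in Lgals7-/- (1.21 to 2.26). Hypoxia sensing genes had a ratio of 1.82 (1.33 to 2.55) in Tg46 over wild-type with Hif1a and 0.879 (0.566 to 1.39) without it. The 12 targets had a ratio of 1.34 (1.03 to 1.76) in Tg46 over wild-type, and 0.989 (0.742 to 1.33) without Vegfa and Car9. The sum of the 4 carriers, to which Slc16a1 gave the most counts, did not differ beyond counting error, at 0.821 (0.587 to 1.16) in Tg46 over wild-type and 0.979 (0.707 to 1.37) in Lgals7-/- over wild-type. Since the sums follow the genes with the most counts, they describe the counts of a role and not its typical member.

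**Figure D4:**
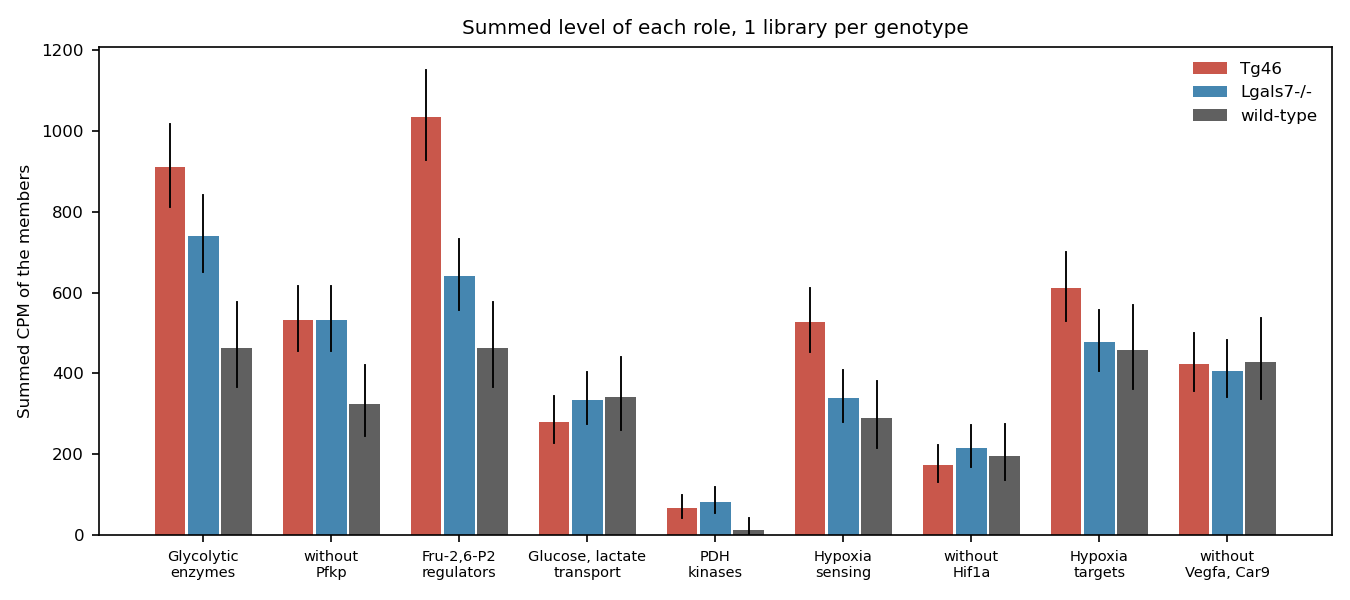
Summed CPM of the members of each role in Tg46, Lgals7-/- and wild-type, with bars from 0 and 95% Poisson intervals; groups marked "without" leave out the genes they name, and Fru-2,6-P2 stands for fructose-2,6-bisphosphate and PDH for pyruvate dehydrogenase. The Tg46 bars for hypoxia sensing and hypoxia targets come down to the level of the others once Hif1a, or Vegfa and Car9, are left out, while the enzymes without Pfkp stay lower in wild-type.

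Other genes of the same pathways were read from lists. Of 28 further genes of glycolysis and sugar transport, 17 were compared, with 0 called higher and 1 lower in Tg46 over Lgals7-/-, 3 and 3 in Tg46 over wild-type and 3 and 3 in Lgals7-/- over wild-type. The shares were 0% and 5.88%, 17.6% and 17.6%, and 17.6% and 17.6% of those compared, beside 8.43% and 7.73%, 13.7% and 13.9%, and 13.3% and 13.7% of all genes. Summed, the 28 genes were lower in Tg46 than in wild-type, where the members were higher, with ratios of 0.852 (0.726 to 1.001) in Tg46 over Lgals7-/-, 0.734 (0.611 to 0.883) in Tg46 over wild-type and 0.861 (0.721 to 1.03) in Lgals7-/- over wild-type. Slc2a4, the insulin-responsive glucose carrier of muscle and fat, held 9, 15 and 24 counts in Tg46, Lgals7-/- and wild-type and was 5.002-fold (2.32 to 12.6) lower in Tg46 and 3.01-fold (1.53 to 6.25) lower in Lgals7-/- than in wild-type. Skeletal muscle markers were lower in the same comparisons, at 87, 117 and 87 counts over 10 genes, a ratio of 0.516 (0.379 to 0.702) in Tg46 over wild-type and 0.706 (0.530 to 0.943) in Lgals7-/- over wild-type, and their part was not tested. Bpgm, which makes 2,3-bisphosphoglycerate, held 9, 15 and 0 counts. Against the floor of 3 counts it was at least 1.55-fold higher in Tg46 and at least 2.62-fold higher in Lgals7-/- than in wild-type. These bounds take the Tg46 or Lgals7-/- count as exact, and the lower ends of the intervals were 1.02 and 1.88. The Tg46 bound is under 2-fold, so the call of Bpgm there rests on the ratio with 0.5 counts added to each library. Hk3, a hexokinase of myeloid cells, held 14, 14 and 1.

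Of 50 further hypoxia genes, 28 were compared, and 1 was called higher and 3 lower in Tg46 over Lgals7-/-, 3 and 3 in Tg46 over wild-type, and 6 and 1 in Lgals7-/- over wild-type. The shares were 3.57% and 10.7%, 10.7% and 10.7%, and 21.4% and 3.57% of those compared, where 8.43% and 7.73%, 13.7% and 13.9%, and 13.3% and 13.7% of all genes were called. Summed over the 50 genes the ratios were 0.871 (0.776 to 0.979) in Tg46 over Lgals7-/-, 0.905 (0.786 to 1.04) in Tg46 over wild-type and 1.04 (0.905 to 1.19) in Lgals7-/- over wild-type. Their median log2 ratios were -0.30, -0.06 and -0.05, against 0.18, 0.71 and 0.50 for the members. Plod1, a collagen lysyl hydroxylase, held 37, 13 and 8 counts and was called higher in Tg46 over Lgals7-/- (2.73-fold, 1.45 to 5.73) and over wild-type (2.27-fold, 1.09 to 5.93). Hif3a, an inhibitory HIF subunit, held 15, 32 and 3 counts, with Lgals7-/- the high library, and was 2.13-fold (1.14 to 4.32) lower in Tg46 than in Lgals7-/-. Edn1, endothelin, held 17, 14 and 0 counts. Against the floor of 3 counts it was at least 2.92-fold higher in Tg46 and at least 2.45-fold higher in Lgals7-/- than in wild-type. These bounds take the Tg46 or Lgals7-/- count as exact, and the lower ends of the intervals were 2.13 and 1.74. Flt1, a VEGF receptor of endothelium, held 13, 17 and 17 counts and was 2.51-fold (1.16 to 5.68) lower in Tg46 than in wild-type. The 7 endothelial markers together had a ratio of 0.846 (0.614 to 1.17) in that comparison.

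Of 20 genes of pyruvate entry and the pentose phosphate pathway, 13 were compared, with 2 called higher and 0 lower in Tg46 over Lgals7-/-, 2 and 1 in Tg46 over wild-type, and 1 and 2 in Lgals7-/- over wild-type. The shares were 15.4% and 0%, 15.4% and 7.69%, and 7.69% and 15.4% of those compared, against 8.43% and 7.73%, 13.7% and 13.9%, and 13.3% and 13.7% of all genes. Summed over the 20 genes the ratios were 1.34 (1.10 to 1.64), 1.26 (0.995 to 1.62) and 0.942 (0.730 to 1.22) in the same comparisons. Mlxip, a glucose-sensing transcription factor, held 19, 7 and 1 counts and was 2.55-fold (1.07 to 7.505) higher in Tg46 than in Lgals7-/-. Rpe, of the pentose phosphate pathway, held 45, 17 and 13 and was 2.55-fold (1.46 to 4.85) higher in the same comparison. Subunits of the pyruvate dehydrogenase complex were among the genes called lower in Lgals7-/- over wild-type. Pdha1 held 11, 4 and 12 counts and was 5.29-fold (1.73 to 24.3) lower there, and Dlat held 15, 8 and 16 and was 3.70-fold (1.54 to 10.3) lower. Both held at least 10 counts in wild-type, and 30.4% of all such genes were called lower in this comparison. Pdk4, which inhibits the complex, was called higher there, a call that was lost with 5 counts added. Whether these calls are linked was not tested.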

How the data were processed

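RNA of papillomas was made into 1 library per genotype from 3 pooled tumours, per the labels' protocols. Deposited were raw read counts per Entrez gene, made by the authors with build mm10 (mm 10, per the submitters' processing notes). The aligner, counter, annotation and strand setting are not stated in the sources used. Symbols came from RefSeq (23968 of 24028 identifiers), and gene models, exon lengths and overlaps from GENCODE on GRCm38, the assembly of mm10 (23697).

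Library totals were multiplied by TMM factors (0.945 in Tg46, 1.05 in Lgals7-/-, 1.004 in wild-type) from edgeR 4.0.16 in R 4.3.3. Ratios had 0.5 counts added to each library, and those of sums had none. Genotypes without replicates allow no quasi-likelihood test, so the text holds no p-values and a call sets 2 libraries, not conditions, against each other. Ratios and intervals were tested on simulated counts that held counting error alone, which cannot show how the calls fare where tumours vary. Python 3.11.15, numpy 2.4.6, scipy 1.17.1, pandas 2.3.3 and matplotlib 3.10.9 were used, and DESeq2 1.42.0 for an alternative.

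The members and lists were chosen with earlier results of these data known. The rule named all members, and of each list the called genes, at most 6 per comparison, largest ratio first; some of these are left out for length. Example promoters are the 4 called members with the largest ratios against wild-type.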

Additional observations from a re-analysis of the deposited data

How the results depend on the processing

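No paired analysis was possible because there was only 1 library of each genotype. Leaving out a library could not be tried for the same reason. Of 252 member ratios recomputed with other scalings or added counts, 9 crossed 1, 0 of them called in the report, and all stayed within their interval. Filters leave a ratio as it is by construction. DESeq2 size factors, total counts and no filter left every count of calls within 1.5 times.

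A filter of 30 summed counts tests fewer genes, 8351 in all and 21 of the members. Of these genes, 680 were called higher and 523 lower in Tg46 over Lgals7-/-. The numbers were 1140 and 1110 in Tg46 over wild-type and 994 and 1073 in Lgals7-/- over wild-type. Of these members, 1 was lower in Tg46 over wild-type. Adding 5 counts kept 28 members and 12940 genes compared. It left 0 members lower in Tg46 over Lgals7-/- (without Pfkm), where 794 genes were lower. It left 2 members higher in Lgals7-/- over wild-type (Pfkl and Pfkm) and a median of 0.18 in Tg46 over wild-type. Then 658 and 584 genes were higher in Tg46 and Lgals7-/- over wild-type. Fold alone gave 5 members, 1808 genes higher and 1653 lower in Tg46 over Lgals7-/-, and 3307 and 3269 higher in Tg46 and Lgals7-/- over wild-type. Without genes that have an opposite-strand exon, fewer genes were tested, 8628 in all and 18 of the members. Of these members, 1 was higher and 0 lower in Tg46 over Lgals7-/-, where 593 genes were higher and 745 lower. In Tg46 over wild-type, 3 of these members and 1071 genes were higher.

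Alternatives for the sums were chosen after seeing the data. In Tg46 over Lgals7-/- the ratio over all members was 1.18 with total counts, 1.02 without Pfkfb2, Pfkp and Hif1a and 0.982 (reversed) without opposite-strand exons, and in Tg46 over wild-type 1.27 and 1.17 under the last 2 settings. Reversed as well were enzymes without Pfkp (0.999) and sensing genes without Hif1a (0.802) in Tg46 over Lgals7-/-. So were sensing genes without Hif1a (0.879) and targets without Vegfa and Car9 (0.989) in Tg46 over wild-type. Reversed means here only that the ratio fell below 1. The interval of every reversed ratio included 1, so none shows a difference in the opposite direction. Reversals without named genes follow from the genes left out, and for the other settings the cause was not tested.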

Other observations

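Genes of mitochondrial respiration were not higher in Tg46 or Lgals7-/- than in wild-type as a sum. The 28 genes held 266 counts in Tg46, 276 in Lgals7-/- and 200 in wild-type, a ratio of 0.686 (95% interval 0.569 to 0.828) in Tg46 over wild-type and 0.724 (0.602 to 0.873) in Lgals7-/- over wild-type. Of the 13 compared, 1 was called higher and 1 lower in Tg46 over Lgals7-/-, 0 and 1 in Tg46 over wild-type and 1 and 2 in Lgals7-/- over wild-type. The shares were 7.69% and 7.69%, 0% and 7.69%, and 7.69% and 15.4% of those compared, beside 8.43% and 7.73%, 13.7% and 13.9%, and 13.3% and 13.7% of all genes. Cycs, cytochrome c, held 6, 3 and 24 counts in Tg46, Lgals7-/- and wild-type and was 7.31-fold (3.09 to 23.2) lower in Tg46 and 13.3-fold (4.63 to 79.1) lower in Lgals7-/- than in wild-type. It passed the filter through wild-type alone. Of all genes with at least 10 counts in wild-type, 31.1% were called lower in Tg46 and 30.4% in Lgals7-/-. Atp5b, a subunit of ATP synthase, held 6, 23 and 4 counts, with Lgals7-/- the high library, and was 3.68-fold (1.54 to 11.7) lower in Tg46 than in Lgals7-/-.

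Adipocyte markers held 50, 34 and 11 counts over 6 genes, a ratio of 2.34 (1.20 to 4.99) in Tg46 over wild-type. Neutrophil markers held 20, 44 and 10 over 5 genes, a ratio of 2.31 (1.15 to 5.15) in Lgals7-/- over wild-type. Fibroblast, macrophage and erythroid markers had ratios between 0.897 and 1.38 against wild-type, all with intervals that included 1.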
